A study of Capra hircus with 2 samples.

Results

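The miR-106b, miR-93 and miR-25 cluster is a group of 3 microRNA (miRNA) genes that lie close together and are copied as 1 primary transcript. The members were taken by name from the study's list of conserved goat miRNAs, where they are 3 of 346 entries, and all 3 were found in both small RNA libraries of the goat mammary gland. Each library was made from mammary gland RNA of 3 Xinong Saanen dairy goats, pooled before sequencing, which gave 1 library per stage (dry period and peak lactation). The animals carried no genetic change and received no treatment that the labels name, and each stage is as its sample title states it. The labels give 75 days after lambing for the dry period sample and 320 for the peak lactation sample, whereas the paper assigns the days the other way round. The clean read totals of the files are those that the paper lists under the same stage names, so the conflict touches the days and not which library is which. With 1 library per stage there was no replicate check, and every interval and p value below covers the sampling of reads in these 2 libraries, not the difference between goats or between library preparations. In pooled tissue RNA, fewer cells that hold a miRNA and less of it per cell cannot be told apart.

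miRNAs are cut from hairpin precursors, and usually 1 arm of the hairpin, the mature arm, is kept in the Argonaute protein while the other, the passenger arm, is degraded. The mature strand finds its target mRNAs mainly through the seed, which is bases 2 to 8. In mammals the cluster sits in an intron of MCM7, which encodes a subunit of the helicase that opens DNA for replication. In the RefSeq gene table of the goat assembly ARS1.2, MIR106B, MIR93 and MIR25 all lay within the span of MCM7, in that order. The cluster is known to be switched on by E2F factors in dividing cells, and it restrains inhibitors of the cell cycle such as CDKN1A (p21) and the cell death factor BCL2L11 (BIM). It is a relative of the miR-17-92 cluster, with which it shares its seeds.

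The 3 mature sequences, as given in the study's list, are shown because the cluster holds 2 seeds. Bases 2 to 8 of each sequence are in capitals here and below:
miR-106b: uAAAGUGCugacagugcagaua
miR-93: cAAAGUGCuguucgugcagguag
miR-25: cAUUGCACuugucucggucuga
miR-106b and miR-93 share the seed AAAGUGC and were identical at 17 of 22 positions counted from the 5′ end. miR-25 has the seed AUUGCAC and matched miR-93 at 9 of 22 positions and miR-106b at 6. The closest relatives with reads to compare were these:
miR-17-5p: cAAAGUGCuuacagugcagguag
miR-20a: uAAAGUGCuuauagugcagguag
miR-92a: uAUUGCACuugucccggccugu
A distinct read sequence, called a tag, was counted for a miRNA when it was identical to the listed sequence for at least 18 nt from the 5′ end, whatever its 3′ end. No tag of a member was shared with another miRNA under this rule.

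All 3 members were lower in the peak lactation library per clean read, but by different amounts. Tags of miR-25 held 40513 reads in the dry period library, or 2728 reads per 1000000 clean reads (RPM, Wilson 95% interval 2702 to 2755), and 6382 reads or 406 RPM (396 to 416) in the peak lactation library. Tags of miR-93 held 4420 reads or 298 RPM (289 to 307) in the dry period and 540 reads or 34.4 RPM (31.6 to 37.4) at peak lactation. Tags of miR-106b held 2040 reads or 137 RPM (132 to 143) in the dry period and 604 reads or 38.4 RPM (35.5 to 41.6) at peak lactation. For each member the intervals of the 2 libraries were far apart. Among the 346 listed miRNAs, miR-25 stood at rank 22 by dry period reads and at rank 42 by peak lactation reads, miR-93 at 66 and 97, and miR-106b at 80 and 90. miR-25 was thus the abundant mate in both libraries, and miR-93 lost the most places.

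**Figure D1:**
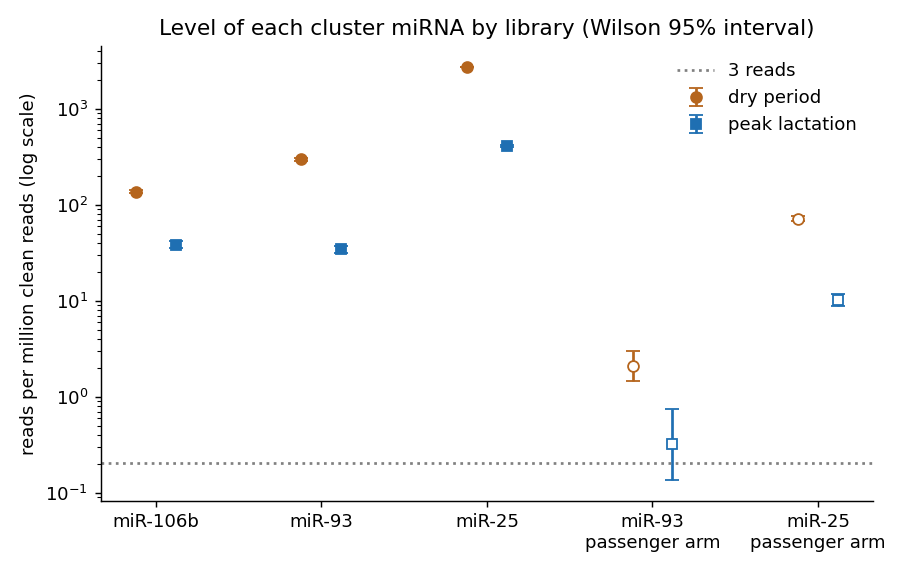
Level in reads per 1000000 clean reads (log axis) of the 3 members (filled symbols) and of the passenger arms of miR-93 and miR-25 (open symbols) in the dry period library (circles) and the peak lactation library (squares), with Wilson 95% intervals and a dotted line at 3 reads. miR-93 lies above miR-106b in the dry period library (298 against 137 RPM) and beside it at peak lactation (34.4 against 38.4 RPM).

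The log2 fold change of peak lactation over the dry period, in RPM, was -3.11 for miR-93 (95% interval -3.24 to -2.99), an 8.66-fold lower level. For miR-25 it was -2.75 (-2.79 to -2.71), a 6.72-fold lower level. For miR-106b it was -1.84 (-1.97 to -1.71), a 3.57-fold lower level. The read-based Audic-Claverie probability gave log10 p = -802 for miR-93, -6443 for miR-25 and -198 for miR-106b, in an exact two-sided calculation that compares these 2 libraries. Summed over the cluster, 46973 dry period reads and 7526 peak lactation reads gave a log2 fold change of -2.72 (-2.76 to -2.69).

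These changes have to be read against a general shift in the share of clean reads that went to conserved miRNAs as a class. Counted by identity over at least 18 nt from the 5′ end, it was 61.1% (dry period) and 14.4% (peak lactation). The paper's own totals of reads matched to miRNA precursors differ less between the stages, so the size of this shift depends on the counting. Of 257 miRNAs with at least 1 RPM in one library, 174 were called lower and 3 higher, a call being a log2 fold change beyond 1 in size with an Audic-Claverie p under 0.01. All 3 members were called lower, beside 67.7% of the tested miRNAs called lower and 1.17% called higher, so the count of calls is by itself no result about the cluster. The median log2 fold change of the tested miRNAs was -1.44, with quartiles of -2.15 and -0.92. Relative to this median, miR-93 stood at -1.68 on the log2 scale, miR-25 at -1.31 and miR-106b at -0.40. Of the 105 tested miRNAs with at least 1000 reads in the dry period, 5 had a lower log2 fold change than miR-93, 15 a lower one than miR-25 and 33 a lower one than miR-106b.

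The direction for miR-106b depended on the denominator. When the library total was replaced by its conserved miRNA reads, which moved every value up by 2.08 and the median of the tested miRNAs to 0.64, miR-106b was higher at peak lactation (0.25, 95% interval 0.12 to 0.38) while miR-93 (-1.03) and miR-25 (-0.66) stayed lower. By that denominator 15 tested miRNAs (5.84%) were called lower and 85 (33.1%) higher. miR-93 was the only member called. That miRNA total was counted only by the rule given above. A miRNA total that differs less between the stages, such as the paper's, would move the values up by less. Factors that centre the bulk of the miRNAs placed miR-106b at -0.54 (TMM) and -0.44 (DESeq2 size factors), below the call threshold, and left miR-93 at -1.82 and -1.72 and miR-25 at -1.45 and -1.35, both called lower. The calls over all tested miRNAs were 48 lower (18.7%) and 21 higher (8.17%) with TMM, and 42 lower (16.3%) and 28 higher (10.9%) with size factors. Much of the conserved miRNA total is let-7. In the dry period, let-7a and let-7f held 2628486 and 2718302 of its 9081514 reads. At peak lactation they held 359477 and 678325 of 2266176. Conserved miRNA reads other than let-7 gave -0.70 for miR-106b, -1.98 for miR-93 and -1.61 for miR-25, with 59 tested miRNAs (23%) called lower and 14 (5.45%) higher.

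**Figure D2:**
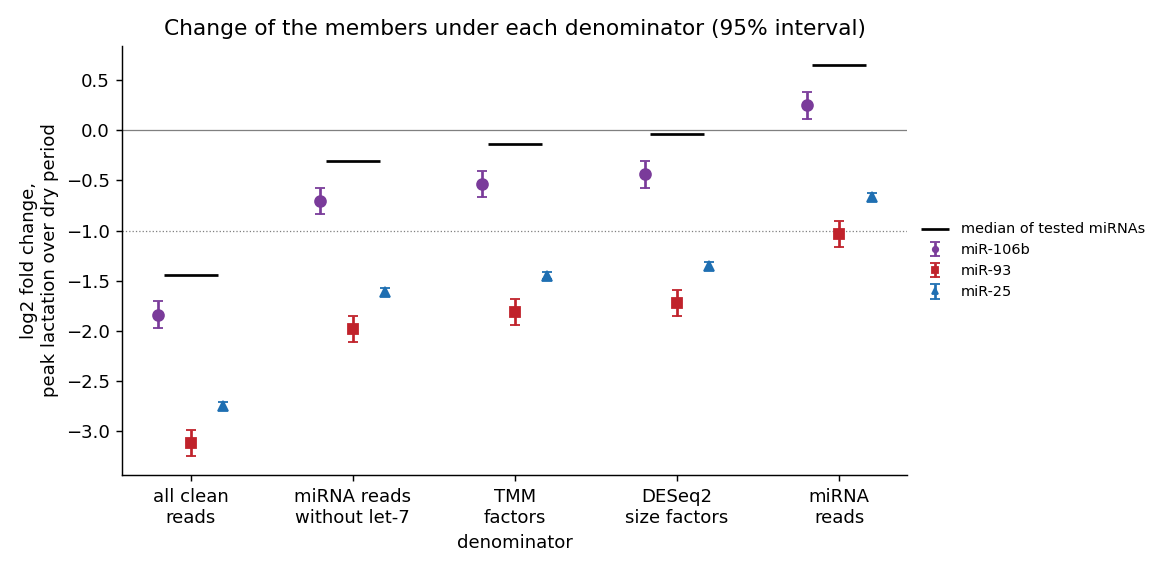
Log2 fold change (peak lactation over dry period) of the 3 members under 5 denominators, with 95% intervals, and the median of the 257 tested miRNAs as black bars; the dotted line marks -1. Each denominator moves the 3 members by the same amount, and miR-106b is above 0 only per conserved miRNA read (0.25).

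The question that the denominator cannot touch is whether the cluster mates kept their proportions, because a ratio of 2 miRNAs within a library has the same denominator above and below. In these libraries they did not. In the dry period library miR-93 had 2.17 times the reads of miR-106b (95% interval 2.06 to 2.28), and at peak lactation 0.894 times (0.796 to 1.004). At peak lactation these mates did not differ beyond the counting error (exact two-sided binomial p = 0.0625). The ratio of miR-93 to miR-106b was therefore 2.42-fold lower at peak lactation, a log2 change of -1.28 (-1.46 to -1.09, adjusted p = 1.5e-41). The ratio of miR-25 to miR-106b went from 19.9 to 10.6, a log2 change of -0.91 (-1.05 to -0.77, adjusted p = 2.8e-35). The ratio of miR-25 to miR-93 moved the other way and by less, from 9.17 to 11.8, a log2 change of 0.37 (0.23 to 0.50, adjusted p = 4.5e-08). These are two-sided Fisher's exact tests on reads, adjusted by Benjamini-Hochberg over the 3 pairs.

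Seen as shares of the cluster, miR-106b rose from 4.34% of its reads (Wilson 95% interval 4.16 to 4.53%) to 8.03% (7.43 to 8.66%), and miR-93 fell from 9.41% (9.15 to 9.68%) to 7.18% (6.61 to 7.78%). miR-25 held 86.2% in the dry period (85.9 to 86.6%) and 84.8% at peak lactation (84.0 to 85.6%). With counts limited to the tag that equals the listed sequence, the ratio of miR-93 to miR-106b was 2.20 for the dry period library and 1.07 at peak lactation (0.902 to 1.28), whereas it was 0.882 with up to 1 mismatch (exact binomial p = 0.0327) and 0.887 with a stretch of 20 nt (exact binomial p = 0.0488), so the order of these mates at peak lactation depended on the counting. With the identical tag alone, the change of the miR-25 to miR-93 ratio was 0.19 (0.002 to 0.39, adjusted p = 0.0478 by Fisher's exact test), close to the threshold.

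**Figure D3:**
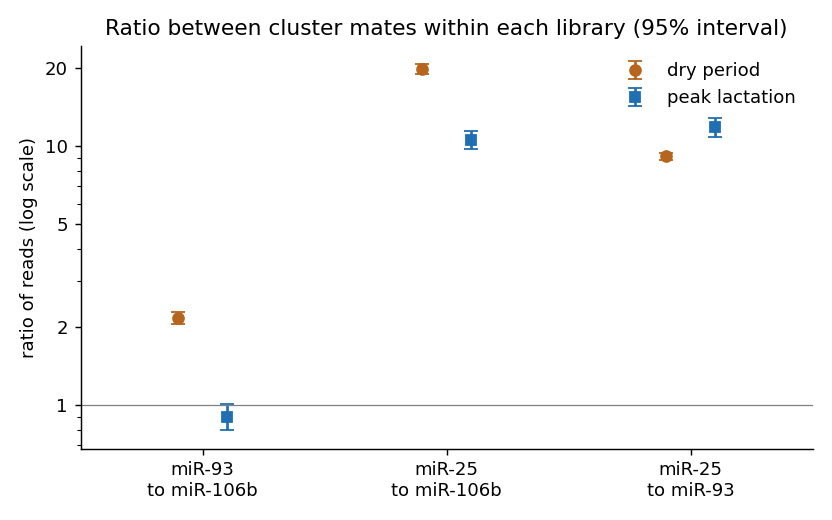
Ratio of reads between cluster mates (log axis) within the dry period library (circles) and the peak lactation library (squares), with 95% intervals from the counts. The ratio of miR-93 to miR-106b goes from 2.17 to 0.894 and that of miR-25 to miR-106b from 19.9 to 10.6, while miR-25 to miR-93 rises from 9.17 to 11.8.

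Both arms of a hairpin come from the same precursor, so the passenger arm gives a second reading of the same gene. Precursor sequences were at hand for miR-25 and miR-93, and the most frequent passenger tags are shown because they are the arms that the list of conserved miRNAs leaves out:
miR-25 passenger arm: aGGCGGAGacuugggcaauugcu
miR-93 passenger arm: aCUGCUGAgccagcacuucccga
The mature miRNA lies on the 3′ arm of the miR-25 precursor and on the 5′ arm of the miR-93 precursor. Tags identical to the passenger arm of miR-25 held 1069 dry period reads (72.0 RPM) and 160 reads (10.2 RPM) at peak lactation, a log2 fold change of -2.82 (-3.06 to -2.58), which overlaps that of the mature arm. Its share of the reads identical to the precursor was 2.84% (2.68 to 3.01%) in the dry period and 2.72% (2.33 to 3.16%) at peak lactation. The difference of -0.12 percentage points (95% interval -0.57 to 0.33) was not distinguishable from 0 (adjusted p = 0.64, two-sided Fisher's exact test). Tags of the passenger arm of miR-93 held 31 and 5 reads, or 2.09 and 0.318 RPM, which allowed no more than a wide estimate, with a log2 fold change of -2.71 (-4.03 to -1.40). Its share was 0.855% (0.603 to 1.21%) and 1.08% (0.460 to 2.49%), a difference of 0.22 points (-0.76 to 1.20, adjusted p = 0.64 by Fisher's exact test). Both arms of the miR-25 hairpin were thus lower at peak lactation per clean read. The passenger arm of miR-106b was not analysed here.

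The 5′ end, which sets the seed, lay at the listed base for 99.5% of the miR-25 reads in both libraries, counted over tags that held at least 18 nt of the listed sequence at any offset. For miR-106b the values were 99.1% and 99.03%, and for miR-93 they were 99.4% and 98.4%, the last with 9 shifted reads of 553. The 3′ end varied more. The tag identical to the listed sequence was the most frequent one for each member, with 60.5% (dry period) and 59.7% (peak lactation) of the reads of miR-25, 44.1% and 49.1% for miR-93, and 43.4% and 40.9% for miR-106b.

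The tags of rank 2 and 3 by reads are shown because they carry the 3′ variation, which in most cases is the loss of the last bases:
miR-106b, rank 2: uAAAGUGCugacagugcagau
miR-106b, rank 3: uAAAGUGCugacagugcagauaa
miR-93, rank 2: cAAAGUGCuguucgugcaggua
miR-93, rank 3: cAAAGUGCuguucgugcaggu
miR-25, rank 2: cAUUGCACuugucucggucug
miR-25, rank 3: cAUUGCACuugucucggucu
The tag of rank 2 of miR-25 had 6131 dry period and 957 peak lactation reads, and that of rank 3 had 3293 and 532. Those of miR-93 had 1008 and 115 reads, and 453 and 52 reads. Those of miR-106b had 631 and 162 reads, and 175 and 71 reads. The tag of rank 3 of miR-106b is longer than the listed sequence by an A, whereas each of the other tags in this list is shorter.

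Reads shorter than the listed sequence made up 29.6% of miR-25 (29.1 to 30.0%) in the dry period and 30.0% (28.9 to 31.2%) at peak lactation. The shares were 37.3% (35.8 to 38.7%) and 35.9% (32.0 to 40.1%) for miR-93, and 37.7% (35.7 to 39.9%) and 36.3% (32.5 to 40.2%) for miR-106b. None of the 3 differences was distinguishable from 0. They were 0.44 percentage points for miR-25 (95% interval -0.77 to 1.65), -1.34 for miR-93 (-5.63 to 2.95) and -1.49 for miR-106b (-5.86 to 2.89), each with adjusted p = 0.57 in two-sided Fisher's exact tests. Over 99 conserved miRNAs with at least 500 reads in both libraries, the median of the same difference was -0.02 points, with quartiles of -1.41 and 1.77. The mean tag length was 21.5 nt in both libraries for miR-25, 22.5 nt in both for miR-93, and 21.7 nt in both for miR-106b.

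**Figure D4:**
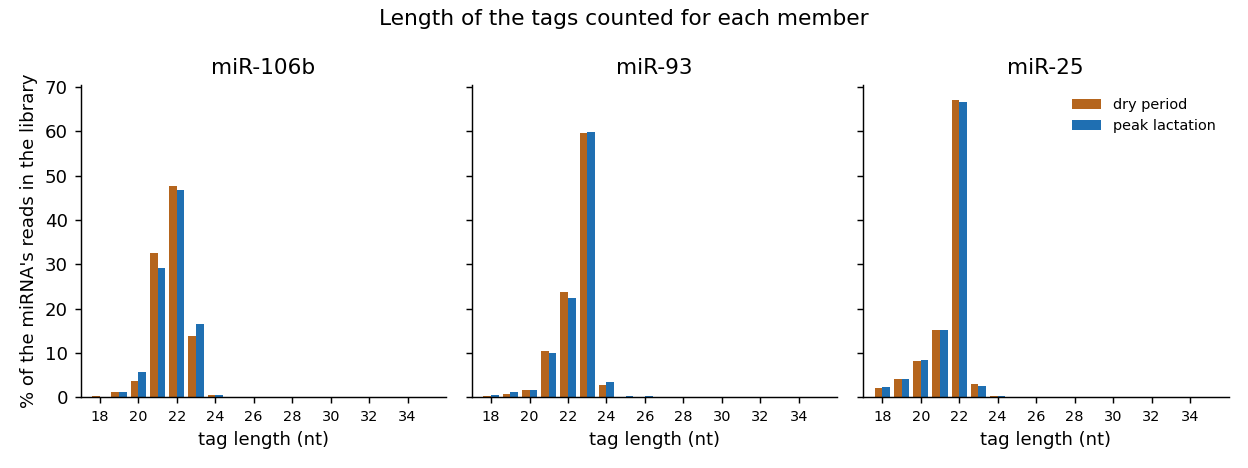
Share of each member's reads at each tag length (nt) in the dry period library and the peak lactation library. The most frequent length is 22 nt for miR-106b and miR-25 and 23 nt for miR-93 in both libraries.

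A difference at the 3′ end was seen for A bases added to miR-106b, a class that was looked at after the counts were known. It holds reads with only A after the last base that matched the listed sequence, also where that match stopped short of its end. Such reads made up 10.9% of miR-106b in the dry period (223 reads, Wilson 95% interval 9.65 to 12.4%) and 15.6% at peak lactation (94 reads, 12.9 to 18.7%), with adjusted p = 0.016 over 12 two-sided Fisher's exact tests of 4 end classes in 3 members. Of these, the full listed sequence with 1 A more, the tag of rank 3 above, had 175 and 71 reads (8.58% and 11.8%). In the 99 miRNAs of the comparison above, each read against its own listed sequence, the median difference in this class was -0.08 percentage points (quartiles -0.49 and 0.58), and 2 of them had a larger rise than the 4.63 points of miR-106b. No precursor of miR-106b was at hand, so a base of the gene and an added base could not be told apart there. For miR-93 and miR-25, where the precursor was used, reads with added A made up 8.21% and 2.27% in the dry period and 7.04% and 2.10% at peak lactation. Reads of miR-25 with other added bases were 0.997% (404 reads) and 1.57% (100 reads, adjusted p = 0.0013 by Fisher's exact test). The other 10 classes had an adjusted p of 0.0735 or more by these exact tests.

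Relatives with the same seeds also had lower levels at peak lactation per clean read. Per conserved miRNA read, the 4 with the seed AAAGUGC stood at -0.16 (miR-17-5p), -0.03 (miR-20a), -0.08 (miR-20b) and -0.80 (miR-106), each with a 95% interval that held 0, so none passed. Those with the seed AUUGCAC were above 0 per conserved miRNA read (0.28 for miR-92a, 0.86 for miR-92b and 0.73 for miR-363), and miR-92b also with TMM (0.08) and with size factors (0.18), as was miR-363 with the latter (0.04). By the conserved miRNA denominator the median of all tested miRNAs was itself 0.64, so a value above 0 was common, and miR-92a lay below that median. Besides miR-106b and miR-93, the seed AAAGUGC is found in miR-17-5p, miR-20a, miR-20b and miR-106. The reads were 817 and 183 for miR-17-5p (log2 fold change -2.24, 95% interval -2.47 to -2.01) and 751 and 184 for miR-20a (-2.11, -2.34 to -1.88). They were 34 and 8 for miR-20b and 21 and 3 for miR-106. miR-93 lay below and miR-106b above the 2 relatives that had the reads for a comparison. The ratio of miR-93 to miR-17-5p fell from 5.41 to 2.95 (log2 change -0.87, -1.14 to -0.61, adjusted p = 9.9e-10), and that to miR-20a from 5.89 to 2.93 (-1.004, -1.27 to -0.74, adjusted p = 4.5e-12). The ratio of miR-106b to miR-17-5p rose from 2.497 to 3.30 (0.40, 0.14 to 0.67, adjusted p = 0.00496), while that to miR-20a, 2.72 and 3.28, did not pass (0.27, 0.01 to 0.54, adjusted p = 0.072). These p values are from Fisher's exact tests adjusted over 12 pairs of a member and a relative. The pairs of either member with miR-20b and miR-106 had too few reads to tell, with intervals that held 0.

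For the seed AUUGCAC, miR-25 lay below each of its relatives. miR-92 and miR-92a, which are listed with 1 sequence and share all their tags, had 10341 and 3130 reads (log2 fold change -1.81, -1.86 to -1.75). miR-92b had 835 and 379 reads (-1.22, -1.40 to -1.05), and miR-363 had 92 and 38 (-1.36, -1.90 to -0.81). The ratio of miR-25 to miR-92a fell from 3.92 to 2.04 (log2 change -0.94, -1.01 to -0.87, adjusted p = 1.2e-148), to miR-92b from 48.5 to 16.8 (-1.53, -1.71 to -1.35), and to miR-363 from 440 to 168 (-1.39, -1.94 to -0.84, adjusted p = 8.0e-06), in the same exact tests.

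As a sum over all miRNAs with the seed, AAAGUGC stood at 544 RPM in the dry period and 96.9 RPM at peak lactation, a log2 fold change of -2.49 (-2.57 to -2.41). AUUGCAC stood at 3487 and 632 RPM, a log2 fold change of -2.46 (-2.50 to -2.43). The cluster supplied 79.9% of the AAAGUGC reads in the dry period (79.0 to 80.8%) and 75.2% at peak lactation (72.9 to 77.3%). Of the AUUGCAC reads, it supplied 78.2% (77.9 to 78.6%) and 64.3% (63.3 to 65.2%). Against the same-seed relatives, the summed reads of the cluster were lower at peak lactation. The log2 change was -0.40 (-0.58 to -0.21, adjusted p = 4.2e-05) for AAAGUGC and -0.999 (-1.07 to -0.93) for AUUGCAC, in two-sided Fisher's exact tests on reads. The AAAGUGC sum joins members that moved apart, since the ratio to miR-17-5p fell for miR-93 and rose for miR-106b. Within the AAAGUGC group, miR-93 held 54.7% of the dry period reads and 35.5% of the peak lactation reads, and miR-106b 25.2% and 39.7%.

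The listed miRNAs of the miR-17-92 and miR-106a-363 clusters, which arose by duplication from the same ancestor, numbered 12. Of the 11 that could be tested, 10 were called lower, 0 higher and 1 (miR-19a, 28 and 14 reads, exact p = 0.0196) was not called, against 67.7% called lower among all tested miRNAs. In this count miR-92 and miR-92a are 2 names for the same reads. The median log2 fold change was -1.81, beside -1.44 over all tested miRNAs, with a range from -2.89 to -1.07. Per conserved miRNA read the median was 0.28, beside 0.64 over all tested miRNAs. Both medians of the list are the values of miR-92 and miR-92a themselves, and they rest on counting these reads under both names. The untested one, miR-18b, had 1 dry period read and 0 at peak lactation, where a count of 0 allows up to 0.19 RPM. The values of -1.84 for miR-106b and -3.11 for miR-93 stand beside these; the lowest of the list, miR-106, rests on 21 and 3 reads, and its ratio to miR-93 did not differ detectably between the libraries (log2 change of miR-93 to miR-106 -0.23, -1.98 to 1.52, adjusted p = 0.74 by Fisher's exact test).

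**Figure D5:**
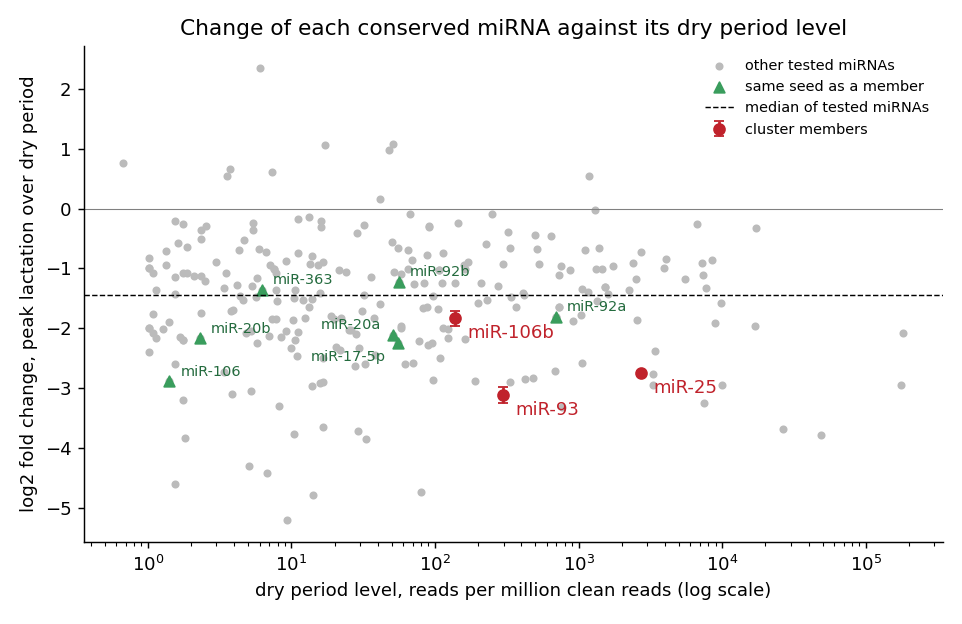
Log2 fold change (peak lactation over dry period) of each of the 257 tested miRNAs against its dry period level in reads per 1000000 clean reads (log axis), with the cluster members in red (95% intervals), same-seed relatives as green triangles, and a dashed line at the median of -1.44. miR-93 (-3.11) and miR-25 (-2.75) lie below miR-92a (-1.81), miR-20a (-2.11) and miR-17-5p (-2.24), and miR-106b (-1.84) lies above both of the latter.

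Among the other tested miRNAs with at least 1000 reads in the dry period, those with the log2 fold change nearest to a member over the 2 libraries were named. For miR-25 they were miR-145 (-2.76), a miRNA of smooth muscle, and miR-128 (-2.72). For miR-93 they were let-7e (-3.26) and miR-199a-3p (-2.96), and for miR-106b they were miR-2284x (-1.86) and miR-92 (-1.81).

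The cell types in the pooled tissue were read from miRNAs that mark them. The 6 epithelial miRNAs (miR-200a, miR-200b, miR-200c, miR-141, miR-429 and miR-205) all had reads in both libraries, and their summed level was 2687 RPM in the dry period and 1342 RPM at peak lactation, with 3 called lower. The 3 miRNAs of red blood cells (miR-451, miR-144 and miR-486) stood at 110 and 190 RPM, with 2 of the 3 called higher. The 5 leukocyte miRNAs stood at 497 and 178 RPM with 4 called lower, the 4 muscle miRNAs at 7241 and 3847 RPM with 3 called lower, and the 2 endothelial miRNAs at 129 and 81.4 RPM with 0 called. Of the muscle sum, miR-1 alone held 7175 and 3835 RPM, and it was the 1 muscle marker not called. Likewise miR-142 held 368 and 118 RPM of the leukocyte sum. These calls are per clean read, where 67.7% of all tested miRNAs were called lower and 1.17% higher. The log2 change of the sums depended on the denominator, from -1.001 per clean read to 1.08 per conserved miRNA read for epithelium, -1.48 to 0.60 for leukocytes, -0.91 to 1.17 for muscle and -0.66 to 1.42 for endothelium, while that of red blood cells was above 0 under both (0.79 and 2.87). With TMM and size factors the sums of epithelium (0.30 and 0.39), muscle (0.39 and 0.48) and endothelium (0.64 and 0.73) were above 0 and that of leukocytes (-0.18 and -0.09) below. The markers of a list differed, so a sum does not give the direction of each. Per clean read they ran from -1.99 (miR-429) to -0.09 (miR-141) in epithelium and from -2.60 (miR-206) to -0.90 (miR-1) in muscle. In leukocytes they ran from -2.92 (miR-142*) to -0.41 (miR-150). TMM moved every value up by 1.30 and size factors by 1.40. No defining marker of these lists was at 0 in either library. The part of the cell makeup in the changes of the cluster was not tested.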

How the data were processed

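Small RNAs from RNA pooled from 3 goats per stage were sequenced on a Solexa instrument, with 1 library per stage. Base calls came from CASAVA, per the submitters' processing notes. The authors cleaned the reads (quality, adaptor and poly(A) filters, at least 18 nt) and deposited each distinct tag (18 to 44 nt) with its count of clean reads, neither normalized nor aligned. These raw counts summed to 14851375 (dry period) and 15712891 (peak lactation), so that 3 reads, taken as the smallest level the depth can show, were 0.20 and 0.19 RPM. Intervals and p values treat each read as independent and cover the counting of reads only. PCR copies are not independent molecules, so the intervals can be too narrow for the molecules in the RNA.

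Tags were given to the listed conserved miRNA that they matched without a mismatch over the most bases, counted from base 1 (at least 18 nt), and a tie was counted for each. Counts were divided by the clean reads and multiplied by 1000000, with 0.01 RPM standing in for 0, and a miRNA was tested if it reached 1 RPM in either library. The Audic-Claverie p was computed from read counts and clean read totals; the paper describes its own p as based on normalized expression, so the inputs differ. Arms were read from tags identical to a precursor, by the side of the precursor's midpoint on which the tag's own midpoint lay. Ratios, ends and arms were tested with Fisher's exact test at an adjusted p of 0.05. Because the stages have no replicates, edgeR and DESeq2 served only for scaling factors (edgeR 4.0.16, DESeq2 1.42.0, R 4.3.3); the rest used Python 3.11.15, scipy 1.17.1 and matplotlib 3.10.9, and the code was tested on simulated data. The named miRNAs were the members, their passenger arms, all listed miRNAs with the same seeds or in the paralogous clusters, the 2 nearest in log2 fold change to each member, and the 3 most frequent tags of each. The members and lists were chosen with earlier results of these data known.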

Additional observations from a re-analysis of the deposited data

How the results depend on the processing

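The counting rule (identical tags, a stretch at any offset, 20 nt, up to 1 mismatch, tags with at least 2 reads) changed no direction or call of a member or of the change in a ratio between mates, although the miR-93 to miR-106b ratio at peak lactation itself lay on either side of 1 (1.07 with identical tags, 0.882 with up to 1 mismatch). For the members, the exact binomial test and 1 read added to each count changed no call. The denominator did. Per conserved miRNA read, miR-106b reversed to 0.25 and miR-25 lost its call at -0.66, which left 1 member called. The other 3 denominators left 2. The conserved miRNA total was counted by the main rule only, so whether the reversal holds with another miRNA total was not tested. miR-106b also lost its call per conserved miRNA read other than let-7 (-0.70), with TMM (-0.54) and with size factors (-0.44). The number of tested miRNAs called went from 177 to 100, 73 (59 lower and 14 higher), 69 and 70 in the order per miRNA read, without let-7, TMM and size factors. The seed sums for AAAGUGC and AUUGCAC were -2.35 and -2.55 with identical tags, -2.18 and -1.75 without the cluster's own members, and -0.41 and -0.38 per conserved miRNA read. The passenger share of miR-93 reversed to -0.37 points when tags with 1 read were left out; the cause was not tested. No paired analysis was possible because each stage has 1 library, and for the same reason no library could be left out. Depth limits what can be said of the passenger arm of miR-93, miR-20b, miR-106 and miR-18b.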

Other observations

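Single-base differences were counted in tags of the listed length, over positions 1 to 18 from the 5′ end. Such reads amounted to 3.04% and 2.78% of the identical reads of miR-25 in the dry period and peak lactation libraries, 3.34% and 3.40% for miR-93, and 3.72% and 5.67% (33 and 14 reads) for miR-106b. Most single-base differences lay beyond this window. In the dry period library it held 746 of 3394 such reads for miR-25, 65 of 728 for miR-93 and 33 of 113 for miR-106b. Within the window, the most frequent difference by dry period reads lay at position 18, its last base, in each member. It was U18G in miR-25 (63 and 11 reads), A18C in miR-93 (22 and 0 reads) and A18C in miR-106b (10 and 2 reads). At peak lactation A3G and A11G of miR-106b also had 2 reads each. The positions are counted from 1 at the 5′ end, with the base of the listed sequence first.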
